A study of Homo sapiens with 12 samples.

Results

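A set of 9 complement genes was followed across 12 RNA-seq libraries of ARPE-19, a widely used human cell line that derives from retinal pigment epithelium (RPE). They were taken by gene name, as the 9 rows of the deposited table that carry the symbols C3, CFB, CFI, C1R, C1S, SERPING1, CD46, CD55 and CD59, out of 40591 rows with a symbol. The libraries form 4 groups of 3. WT are cells for which the labels give no open reading frame (ORF), and GFP is a stable line expressing green fluorescent protein. GSTA4 is a stable line expressing glutathione S-transferase alpha 4, an enzyme that conjugates lipid peroxidation aldehydes to glutathione. OSK is a stable line read as expressing the reprogramming factors POU5F1 (OCT4), SOX2 and KLF4. The ORF lines were collected after 4 days of expression. The labels do not say whether a line is 1 clone, which promoter drives the ORF, how WT cells were kept, or whether a group's 3 libraries are separate cultures. The effect of an ORF and any other difference between lines cannot be told apart, and p-values measure only the spread between these libraries.

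Complement is a chain of blood and tissue proteases and their partners that tags surfaces for removal and can pierce membranes. The classical pathway starts when C1q binds a surface and the proteases C1r and C1s cut C4 and C2. The alternative pathway is an amplification loop in which factor B (CFB) joins cleaved C3. Both meet at C3 and can end in the membrane attack complex. Host cells hold the cascade back with soluble regulators, such as C1 inhibitor (SERPING1) and factor I (CFI), and with the membrane proteins CD46, CD55 and CD59. The RPE makes several of these proteins, and complement at the border of RPE and choroid is studied for its part in age-related macular degeneration.

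Levels are given as CPM, the read counts of a library scaled to its TMM-adjusted size, and differences are log2 fold changes from 1 edgeR quasi-likelihood fit with p-values adjusted by Benjamini-Hochberg over 15179 tested genes, called at 0.05. Total counts ran from 12630675 to 17045454 per library. A count of 0 allows up to 3 reads, or 0.177 to 0.228 CPM (counting error only). GFP replicate 1, the shallowest library, stood apart by detecting 27349 named genes, where the other 11 detected 19488 to 22073. Pearson's r of log2 CPM across genes was 0.984 to 0.99 within groups. The ORF genes were high in the lines named for them, with GSTA4 at 415.8 CPM in its own line and 8.79 in GFP. In OSK, POU5F1, SOX2 and KLF4 stood at 779.1, 628.1 and 927.8 CPM. Of 15 RPE marker genes, RPE65, DCT, TTR and CRX had from 0 to 22 reads summed over the 3 libraries of any group, whereas KRT8, KRT18, MITF, OTX2, PAX6 and PMEL each had at least 4393. The remaining listed markers had 50 to 621 reads per group for LRAT, 31 to 220 for RLBP1 and 125 to 364 for BEST1. TYR had 518 to 2768 reads per group and TYRP1 2013 to 8408. The cells thus held RNA of the regulators MITF, OTX2 and PAX6 and little RNA of the visual cycle enzyme RPE65, with other markers in between.

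Promoter sequences are shown for the 3 genes with a listed promoter that were most raised in OSK (CD55, CD59 and C1R), since the OSK line carries 3 DNA-binding factors. The RefSeq table (GRCh38.p14) held 11 start sites for 6 of the 9 members. Each sequence is the 250 bases before the first listed start, and capitals mark the motif matches described next.
CD55 (chr1:207321428-207321677, plus strand): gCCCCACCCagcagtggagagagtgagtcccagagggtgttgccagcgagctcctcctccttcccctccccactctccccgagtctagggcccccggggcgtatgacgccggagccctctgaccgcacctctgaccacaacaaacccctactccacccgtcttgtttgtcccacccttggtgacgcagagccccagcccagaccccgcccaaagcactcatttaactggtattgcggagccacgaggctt
CD59 (chr11:33736480-33736729, minus strand): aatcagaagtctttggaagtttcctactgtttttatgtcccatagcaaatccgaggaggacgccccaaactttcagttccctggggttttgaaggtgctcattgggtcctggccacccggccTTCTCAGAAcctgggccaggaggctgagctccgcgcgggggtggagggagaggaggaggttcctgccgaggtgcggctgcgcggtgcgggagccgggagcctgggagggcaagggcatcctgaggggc
C1R (chr12:7092446-7092695, minus strand): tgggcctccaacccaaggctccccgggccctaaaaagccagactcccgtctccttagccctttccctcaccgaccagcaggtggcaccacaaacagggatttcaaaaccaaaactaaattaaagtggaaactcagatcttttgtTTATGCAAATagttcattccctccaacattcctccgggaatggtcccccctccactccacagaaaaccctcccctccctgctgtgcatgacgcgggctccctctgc

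Both strands were searched for 7 short motifs. The octamer ATGCAAAT, bound by POU factors, was found in the C1R window 104 bases before the start, on the sense strand. It was present in 1.63% of all 35116 windows of that length. On the opposite strand it overlaps a match to the C/EBP core TTGCNNAA, which 9.05% of windows held. The CD55 window held 1 match to the CACCC box CCNCACCC, bound by KLF factors, at its far end, 249 bases before the start, as did 16.7% of all windows. The CD59 window held the STAT core TTCNNNGAA at 128 bases before the start, a motif found in 6.57% of windows. Matches to the SOX core CATTGTT (2.87% of windows), the interferon response core GAAANNGAA (6.88%) and the NF-kappaB core GGGANNTTC (3.52%) were not among the letters of these 3 windows. Other listed starts of the same genes held further matches. Start 2 of C1R had a CACCC box at 122, a STAT core at 86 and a C/EBP core at 167 bases before it. CD59 had 2 C/EBP cores before start 3 and a CACCC box 60 bases before start 4. The window of its start 2 overlaps that of start 1 and held the same STAT core, there 184 bases before the start. The octamer, SOX and CACCC motifs were added after the promoters had been seen. A match describes letters only and was not tested as a binding site.

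All 7 members with enough reads to test differed among the 4 groups, as did 66.9% of all tested genes. In OSK against GFP 7 of 7 changed, where 45.9% of all genes were called. Of them 6 rose (23.1% of all genes rose) and SERPING1 fell (22.8% fell), and for all 7 no OSK library lay within the GFP range, as for 54.7% of genes. In OSK against GSTA4 it was again 6 higher and SERPING1 lower, beside 47.8% of all genes called, 24.1% higher and 23.8% lower, with no overlap for 7 beside 58%. In OSK against WT the same counts stood beside 45.4% called, 22.7% higher, 22.7% lower and 53.5% without overlap.

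The GSTA4 line moved the members in both directions. Against GFP 6 of 7 changed, beside 29.2% of all genes. C3 and SERPING1 rose (14.7% of all genes rose) and C1R, C1S, CD55 and CD59 fell (14.6% fell), and 6 members had no overlap, beside 42.3%. Against WT 5 changed, beside 38.6%, with 2 higher (19.7%) and 3 lower (19%) and no overlap for 5, beside 49%. GFP against WT called 4 members beside 22.2% of genes, 3 higher (11%) and CD55 lower (11.2%), with no overlap for 4 beside 34.6%. These were not the same 4, since C1R was called with overlap and SERPING1 had no overlap but was not called. The median log2 fold change of the 7 was 1.25 in OSK against GFP and -0.32 in GSTA4 against GFP, against -0.02 and 0.01 over all tested genes. CFB and CFI did not pass the filter on low counts and were not tested. Contrasts that share a control group are not independent of each other.

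**Figure D1:**
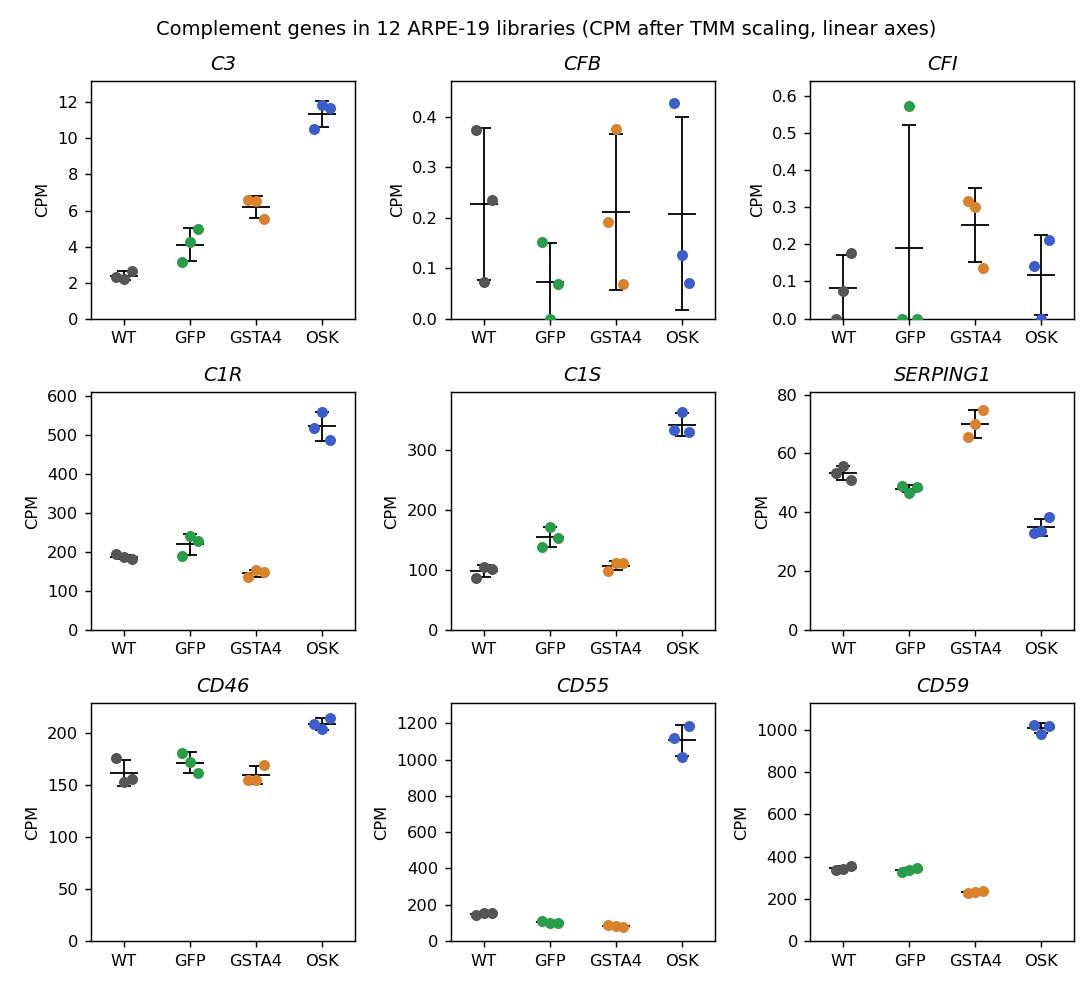
Level of each of the 9 complement genes in the 12 libraries, in CPM after TMM scaling on linear axes that start at 0. Points are libraries, bars the mean and SD of 3, with bars cut off at 0. OSK libraries are the highest for C1R, C1S, CD46, CD55, CD59 and C3 and the lowest for SERPING1, and no group separates for CFB and CFI.

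The classical pathway proteases C1R and C1S rose in OSK and fell in the GSTA4 line when set against GFP. C1R, the protease that activates itself within C1, had 193.1, 186.1 and 182.1 CPM in the WT libraries and 189.7, 241.0 and 228.6 in those of GFP. It had 135.2, 152.2 and 149.0 CPM in the GSTA4 libraries and 517.6, 559.1 and 487.3 in those of OSK. All OSK libraries lay above and all GSTA4 libraries below those of the other lines, and GFP overlapped WT. C1R was 2.37-fold higher in OSK than in GFP (log2 fold change 1.25, SE 0.0776, edgeR adjusted p 4.48e-11). It was 1.51-fold lower in GSTA4 than in GFP (log2 fold change -0.60, SE 0.0784, adjusted p 6.47e-06). The order of levels was OSK, GFP, WT, GSTA4. The step from WT to GFP was small (log2 fold change 0.23, adjusted p 0.0363), and its call was lost in a fit of those 6 libraries alone (adjusted p 0.0702). It was also lost without WT replicate 2 or 3 or GFP replicate 2 or 3, where adjusted p ran from 0.088 to 0.194 while all alternatives spanned 0.00283 to 0.194.

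C1S, the protease that C1r activates and that cuts C4 and C2, had 86.35, 105.5 and 101.6 CPM in the WT libraries and 138.5, 172.0 and 153.9 in those of GFP. It had 98.24, 111.9 and 111.2 CPM in the GSTA4 libraries and 333.1, 364.1 and 330.9 in those of OSK. OSK stood above every other library, GFP stood above WT and GSTA4, and the last pair overlapped. C1S was 2.21-fold higher in OSK than in GFP (log2 fold change 1.15, SE 0.0817, adjusted p 3.6e-10). In GSTA4 it was 1.45-fold lower than in GFP (log2 fold change -0.53, SE 0.0832, adjusted p 5.34e-05). Between GSTA4 and WT the log2 fold change was 0.13 (SE 0.084, adjusted p 0.234), so no fall of C1S against WT was found. The GFP line itself exceeded WT by 0.66 (SE 0.0834, adjusted p 1.22e-05). C1R and C1S are neighbours on chromosome 12, at 7080219 to 7092445 on the minus strand and 7060718 to 7071032 on the plus strand in RefSeq. Their log2 CPM had a Pearson's r of 0.957 over the 12 libraries, a description of libraries that share 4 lines. C1R and C1S rose in OSK by like factors against GFP, but by 2.79-fold and 3.51-fold against WT. The C1S to C1R ratio of reads was 0.658 ± 0.0187 in OSK and 0.706 ± 0.0291 in GFP (SD, n = 3). It was 0.736 ± 0.00981 in GSTA4 and 0.524 ± 0.0668 in WT.

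SERPING1, which encodes the inhibitor that inactivates C1r and C1s, moved the other way. It had 53.25, 55.59 and 50.92 CPM in the WT libraries and 49.04, 46.59 and 48.57 in those of GFP. It had 65.51, 69.88 and 74.85 CPM in the GSTA4 libraries and 32.87, 33.55 and 38.27 in those of OSK. Every GSTA4 library was above, and every OSK library below, all others. With GFP as the control, SERPING1 fell by 0.46 on the log2 scale in OSK (SE 0.0788, adjusted p 6.37e-05). In the GSTA4 line it rose by 0.54 (SE 0.0759, adjusted p 1.39e-05). The direct difference of OSK from GSTA4 was -1.01 (SE 0.0774, adjusted p 8.47e-10), a 2.01-fold lower level. GFP lay below WT in every library, but the difference of -0.15 was not called (adjusted p 0.181). With the proteases up and the inhibitor down, the number of SERPING1 reads per C1S read was 0.102 ± 0.0121 in OSK, 0.314 ± 0.0417 in GFP, 0.548 ± 0.0607 in WT and 0.655 ± 0.0266 in GSTA4 (SD, n = 3 each). No libraries of different groups overlapped, but GSTA4 and WT nearly met, with the lowest GSTA4 library at 0.624 and the highest WT library at 0.617. The ratio of SERPING1 to C1R followed the same order for OSK (0.0674 ± 0.00984), GFP (0.221 ± 0.0335), WT (0.285 ± 0.0123) and GSTA4 (0.482 ± 0.0217). These ratios within a library do not depend on scaling between libraries. They compare reads, not proteins.

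**Figure D2:**
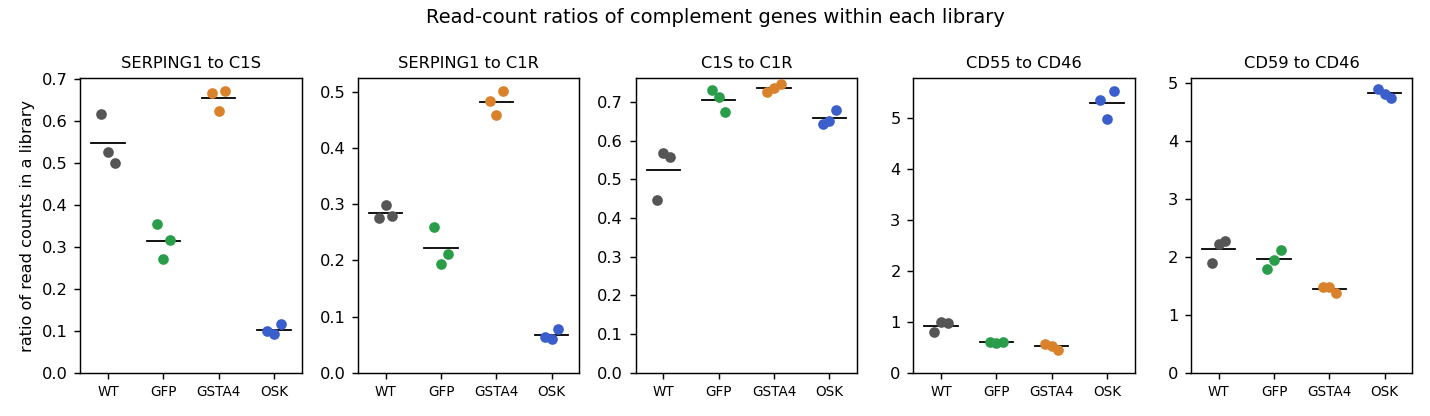
Ratio of the read counts of a pair of complement genes within each library, 1 point per library, with the group mean as a line and axes that start at 0. SERPING1 per C1S and per C1R is lowest in OSK and highest in GSTA4, and CD55 and CD59 per CD46 are highest in OSK.

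C3, the central component that both pathways cleave, was read at a low level in every line. Its reads numbered 37, 30 and 45 in WT, 41, 59 and 73 in GFP, 104, 87 and 80 in GSTA4, and 148, 187 and 166 in OSK. In CPM the groups stood at 2.39 ± 0.238, 4.10 ± 0.927, 6.21 ± 0.616 and 11.3 ± 0.713 (SD, n = 3). The order WT, GFP, GSTA4, OSK had no overlap between neighbours. C3 was 2.75-fold higher in OSK than in GFP (log2 fold change 1.46, SE 0.18, adjusted p 1.15e-06) and 1.83-fold higher than in GSTA4 (adjusted p 0.00027). It was the only tested member besides SERPING1 to rise in GSTA4 against GFP, by 0.59 (SE 0.189, adjusted p 0.0222). That call was lost without GFP replicate 1 (log2 fold change 0.43, adjusted p 0.11) and without GSTA4 replicate 1 or 2 (adjusted p 0.0708 and 0.0652), while all alternatives spanned 0.0114 to 0.11. GFP exceeded WT by 0.78 (SE 0.209, adjusted p 0.0112), a call lost without GFP replicate 3 (log2 fold change 0.62, adjusted p 0.0621) and in a fit of those 6 libraries alone (0.0586), where alternatives began at 0.00395.

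CFB, which supplies the catalytic part of the alternative C3 convertase, and CFI, the protease that degrades C3b and C4b, were close to the floor. CFB had 6, 1 and 4 reads in WT, 2, 0 and 1 in GFP, 3, 5 and 1 in GSTA4, and 6, 2 and 1 in OSK. CFI had 0, 1 and 3 reads in WT, 0, 8 and 0 in GFP, 5, 4 and 2 in GSTA4, and 2, 0 and 3 in OSK. All 4 groups overlapped for both genes, and a difference between lines was not detectable at this depth. With no filter on low counts, CFB had an adjusted p of 0.723 and CFI of 0.75 for any difference among the lines. A limit of counting bears on this: in the GENCODE 29 annotation 78.6% of the exon bases of CFB and 66.2% of those of CFI also belong to a second gene on the same strand, and no row of the deposited table carries that second gene's symbol. The 20014 rows without a symbol were not searched for these second genes. How reads shared by overlapping genes were counted is not given in the sources used here, and the part of this in the low counts was not tested. The CFB promoter held the interferon core 139 and the STAT core 92 bases before its start.

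The membrane regulators showed the largest difference in the set. CD55 (decay-accelerating factor) takes apart C3 convertases on the cell surface and is held there by a glycosylphosphatidylinositol (GPI) anchor. It had 142.0, 151.9 and 153.6 CPM in the WT libraries and 111.3, 100.4 and 98.70 in those of GFP. It had 88.70, 81.81 and 77.40 CPM in the GSTA4 libraries and 1118, 1015 and 1186 in those of OSK. No 2 groups overlapped, and the order was OSK, WT, GFP, GSTA4 with every neighbouring pair called. CD55 was 10.7-fold higher in OSK than in GFP (log2 fold change 3.42, SE 0.0758, adjusted p 3.76e-18), and by p-value it ranked 5 of the 15179 tested genes. Against WT, the line with the next highest level, it was 7.42-fold higher (log2 fold change 2.89, SE 0.0736, adjusted p 2.42e-17). It fell by 0.32 in GSTA4 against GFP (SE 0.0733, adjusted p 0.00213) and by 0.53 in GFP against WT (SE 0.0718, adjusted p 2.99e-05).

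CD59, the GPI-anchored protein that blocks the last step of the membrane attack complex, had 335.7, 342.4 and 354.6 CPM in the WT libraries and 327.0, 337.5 and 344.5 in those of GFP. It had 229.5, 230.1 and 234.8 CPM in the GSTA4 libraries and 1026, 982.6 and 1022 in those of OSK. OSK was far above and GSTA4 below the other lines, and WT and GFP overlapped. CD59 was 3.00-fold higher in OSK than in GFP (log2 fold change 1.59, SE 0.0544, adjusted p 3.14e-15). In GSTA4 it was 1.45-fold lower than in GFP (log2 fold change -0.54, SE 0.0541, adjusted p 1.61e-07). Between GFP and WT the difference was -0.03 (SE 0.0536, adjusted p 0.705).

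CD46 (membrane cofactor protein) helps factor I degrade C3b and C4b and spans the membrane by its own transmembrane segment, with no GPI anchor. It had 176.3, 153.4 and 156.4 CPM in the WT libraries and 181.3, 172.7 and 161.8 in those of GFP. It had 154.7, 155.4 and 169.8 CPM in the GSTA4 libraries and 208.8, 204.0 and 214.9 in those of OSK. WT, GFP and GSTA4 overlapped, and OSK lay above all 9 of their libraries. CD46 was 1.22-fold higher in OSK than in GFP (log2 fold change 0.28, SE 0.0647, adjusted p 0.00121), the smallest rise among the 6 members that rose. In GSTA4 against GFP the difference was -0.10 (SE 0.0651, adjusted p 0.255). CD46 and CD55 lie within the same stretch of chromosome 1, at 207752038 to 207795516 and 207321678 to 207360966, and the reads per CD46 read show how unequal their changes were. The CD55 to CD46 ratio was 5.28 ± 0.277 in OSK, 0.602 ± 0.0177 in GFP, 0.519 ± 0.0591 in GSTA4 and 0.926 ± 0.104 in WT. The CD59 to CD46 ratio was 4.83 ± 0.0803 in OSK, 1.96 ± 0.163 in GFP, 1.45 ± 0.0574 in GSTA4 and 2.13 ± 0.2 in WT.

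The summed level of CD46, CD55 and CD59 was 2325 ± 112.5 CPM in OSK, 611.7 ± 7.35 in GFP, 474.1 ± 7.43 in GSTA4 and 655.5 ± 8.51 in WT (SD, n = 3). CD55 made up 47.5% ± 1.42 of the reads of the 3 genes in OSK and 16.9% ± 0.918 in GFP. Levels of different genes can be compared only per length, here as CPM per kilobase of the GENCODE 29 exons, which may not be the lengths the authors counted over. On that scale C1R was highest in GFP at 78.8, ahead of CD46 at 51.0, C1S at 42.2, CD59 at 40.9, CD55 at 25.98 and SERPING1 at 19.3, and C3 stood at 0.779. In OSK CD55 was first at 277.8 CPM per kilobase, followed by C1R at 186.9, CD59 at 122.9, C1S at 93.4, CD46 at 62.1, SERPING1 at 14.02 and C3 at 2.16. In the GSTA4 line SERPING1, at 28.1, was level with CD59 (28.2) and C1S (29.2).

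**Figure D3:**
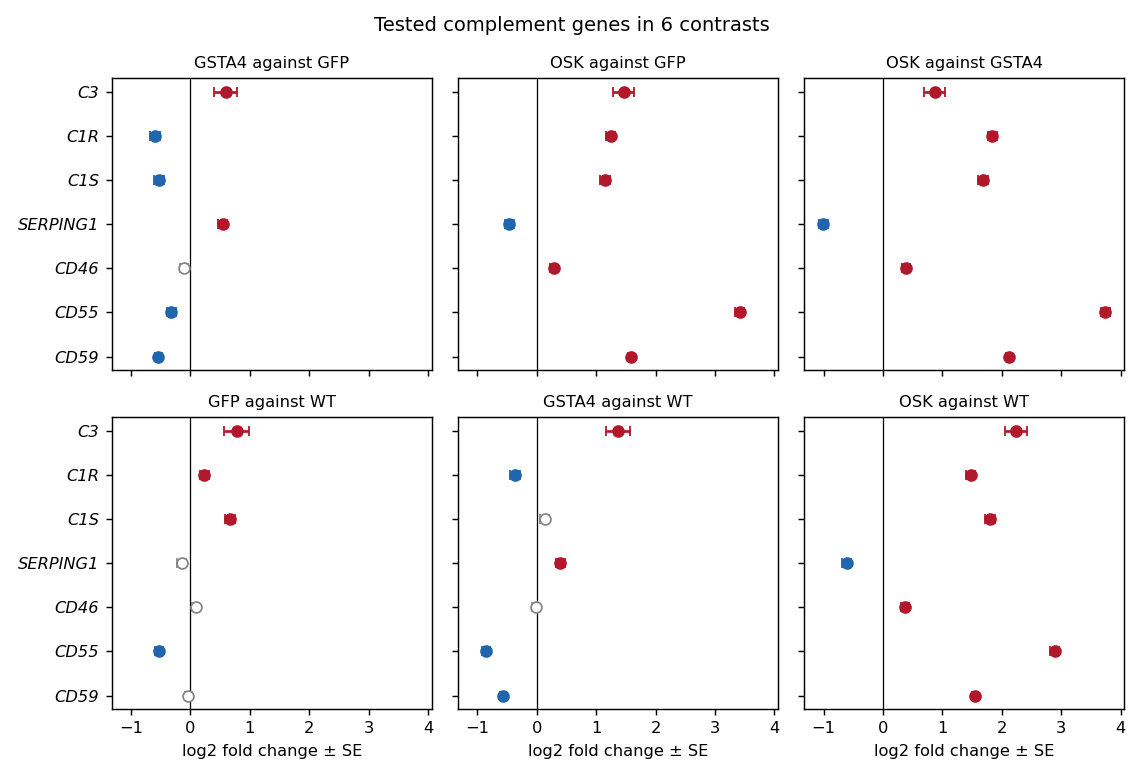
Log2 fold change with its standard error for the 7 tested members in the 6 contrasts among the lines. Filled points passed an adjusted p of 0.05 (red higher, blue lower in the first-named group) and open points did not. CD55 has the largest rise in each OSK contrast, at 3.42, 3.74 and 2.89, and SERPING1 falls in all 3 of them.

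The other complement genes were read from lists written from general knowledge. Of 53 genes, 19 passed the filter on low counts. In OSK against GFP 3 of the 19 were higher and 2 lower, beside 23.1% and 22.8% of all tested genes in those directions, with a median log2 fold change of 0.12. In GSTA4 against GFP 4 were higher and 4 lower, beside 14.7% and 14.6%, with a median of 0.18. C1q, which would start the classical pathway, had 1 read of C1QB and none of C1QA or C1QC in 12 libraries. C1RL, a relative of C1R next to it on chromosome 12, stood at 62.5 CPM in GFP and 81.8 in OSK, a rise of 0.39 (SE 0.0681, adjusted p 8.9e-05). In GSTA4 it differed from GFP by -0.21 (adjusted p 0.025), a call lost without GFP replicate 2 or 3, without any GSTA4 replicate and with no filter on low counts, where adjusted p was 0.0562 to 0.0952. C4A and C4B are near-identical copies, so their reads cannot be assigned with certainty. C4A had 0.971 CPM in GFP and 2.00 in GSTA4 (adjusted p 0.0646).

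Among the remaining listed genes, COLEC12 was placed in the list for the lectin pathway. It rose from 2.40 ± 0.256 CPM in GFP to 5.53 ± 0.695 in OSK, by 1.20 (SE 0.242, adjusted p 0.000362). CFD, the protease that activates factor B, stood at 0.702 CPM in GFP and 1.83 in GSTA4, a rise of 1.38 (adjusted p 0.0132) that was not called without GFP replicate 3 (1.15, adjusted p 0.0621). C5, the first component of the terminal pathway, fell by 0.83 in GSTA4 against GFP (adjusted p 0.0238), but by 0.45 without GFP replicate 1 (adjusted p 0.231) and by 0.62 without GSTA4 replicate 2 (adjusted p 0.123). C6, C7, C8A, C8B and C9 each had at most 6 reads in any group of 3 libraries. Clusterin (CLU), a soluble inhibitor of the membrane attack complex, stood at 738.9 ± 29.9 CPM in GSTA4 and 695.1 ± 32.0 in OSK, above GFP at 544.0 ± 63.1 and WT at 444.4 ± 19.6. It rose in both ORF lines against GFP, by 0.44 in GSTA4 (SE 0.0727, adjusted p 9.82e-05) and by 0.35 in OSK (SE 0.0727, adjusted p 0.000463). Vitronectin (VTN), which shares that role, rose in GSTA4 by 0.67 (SE 0.12, adjusted p 0.000246), from 20.4 to 32.6 CPM. C4BPB, a chain of the C4b-binding protein, fell by 1.47 in OSK (SE 0.363, adjusted p 0.00231), and CSMD1, a membrane inhibitor, fell by 1.73 in OSK and 1.45 in GSTA4 (adjusted p 5.19e-05 and 0.000527).

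Complement genes are known targets of interferon, interleukin-6 family and NF-kappaB signalling, so a list of 24 receptors, kinases and factors of those pathways was read, of which 22 were tested. In OSK against GFP 12 were higher and 3 lower, beside 23.1% and 22.8% of all tested genes, with a median log2 fold change of 0.19. TYK2, a kinase of cytokine receptors, rose from 88.6 ± 4.74 to 299.9 ± 9.6 CPM (log2 fold change 1.76, SE 0.0604, adjusted p 3.14e-15). STAT3, the main factor downstream of interleukin-6, rose from 181.7 ± 4.82 to 394.6 ± 14.3 CPM (1.12, SE 0.0549, adjusted p 1.03e-12). In GSTA4 against GFP 1 was higher and 4 lower, beside 14.7% and 14.6% of all genes, with a median of -0.01. CEBPB, an acute-phase factor, fell by 0.49 there (SE 0.0828, adjusted p 0.000119). IFNAR2 fell by 1.49, from 1.56 to 0.543 CPM (adjusted p 0.0234), a call that depended on single libraries. It was not called without GFP replicate 1 (0.0543) or 2 (0.0574) or GSTA4 replicate 1 (0.0775) or 2 (0.117). Whether any of these genes bears on the members was not tested.

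CD55 and CD59 need a GPI anchor, which the endoplasmic reticulum builds and a transamidase attaches. Of 28 genes of anchor assembly 27 were tested. In OSK against GFP 12 were higher and 1 (PIGZ) lower, beside 23.1% and 22.8% of all genes, with a median log2 fold change of 0.28. In GSTA4 against GFP 6 were higher and 1 (PIGK) lower, beside 14.7% and 14.6%, with a median of 0.06. PIGT, a transamidase subunit, rose in OSK by 1.11 (SE 0.0666, adjusted p 2.6e-11), from 106.1 ± 8.96 to 228.6 ± 15.2 CPM. PIGS, of the same enzyme, rose by 0.65 (SE 0.102, adjusted p 2.38e-05) and GPAA1 by 0.50 (SE 0.0774, adjusted p 1.94e-05). In GSTA4 PIGT rose by 0.40 (SE 0.0669, adjusted p 0.000125) and DPM2, a subunit of the enzyme that supplies mannose, by 0.33 (SE 0.0869, adjusted p 0.00653). PIGK, the catalytic subunit of the transamidase, fell by 0.46 (SE 0.113, adjusted p 0.00441).

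**Figure D4:**
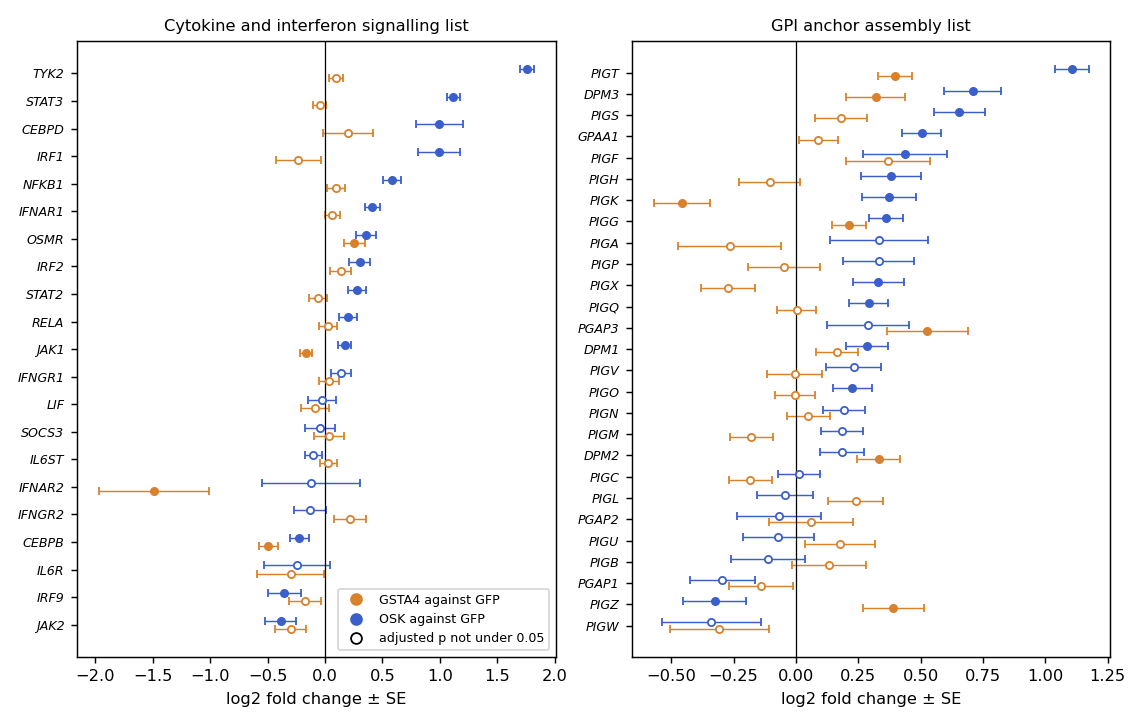
Log2 fold change with its standard error against GFP for the tested genes of the cytokine and interferon list that are reported here and the 27 tested genes of the GPI anchor list, in GSTA4 (orange) and OSK (blue). Filled points passed an adjusted p of 0.05. TYK2 and STAT3 lead the first list in OSK, at 1.76 and 1.12, and PIGT leads the second, at 1.11.

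The genes whose levels followed each member most closely were found among 13696 tested genes with a mean of at least 1 CPM, by Pearson's r of log2(CPM + 0.5) over the 12 libraries. The libraries share 4 lines, so r mostly reflects the 4 group means. CD55 was followed by KSR1 (r = 0.996), GBF1 (0.996) and EMP1 (0.996). CD59 was followed by SEMA3B (0.997), DPYSL2 (0.996) and CLDND1 (0.996), and SEMA3B was also close to C1R (0.985). C1S was closest to UNC5B (0.992), C3 to MRPL16 (0.988), SERPING1 to MAP1LC3A (0.982) and CD46 to CKS2 (0.961), with CKS1B (0.959) next. Among the members CD55 and CD59 had an r of 0.984, C1R and CD59 of 0.982, and SERPING1 and C1R of -0.94. For CFB and CFI, with few reads, the closest genes reached only 0.86 and 0.876 and are not named.

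Markers of cell state and of other cell types moved with the lines too. Of 11 tested RPE markers 10 fell in OSK and 8 fell and 1 (LRAT) rose in GSTA4, each against GFP. Of all tested genes 22.8% fell in OSK, and 14.6% fell and 14.7% rose in GSTA4. The GFP line itself had 7 of the 11 higher and 2 lower than WT, beside 11% and 11.2% of all genes. Against WT 5 fell and 1 rose in OSK, beside 22.7% in each direction. In GSTA4 6 fell and 2 rose against WT, beside 19% and 19.7%. The 15 listed RPE markers summed to 2549 to 2790 CPM in WT and 2254 to 2544 in GFP. Their sum ran from 1637 to 1675 in GSTA4 and 1474 to 1556 in OSK. KRT8 and KRT18 made up a large part of it, with means of 842.8 and 313.7 CPM in GFP. Hepatocytes are the main source of blood complement, and their markers summed to at most 4.26 CPM in any library, with ALB at 0 to 6 reads per group. The macrophage list ran from 16.9 to 19.0 CPM in GFP and 0.45 to 0.894 in GSTA4. Its CSF1R had 715 reads in GFP and 20 in GSTA4, and PTPRC, which marks blood cells, had at most 4 reads per group. Fibroblast markers summed to 707.4 to 776.0 CPM in GFP, 528.7 to 557.4 in GSTA4 and 337.5 to 396.8 in OSK, nearly all PDGFRB and COL1A1, with LUM at 0 reads throughout. Endothelial markers, mostly KDR, ran from 23.7 to 94.5 CPM. In bulk RNA fewer cells of a state and less RNA per cell cannot be told apart, and the part of these shifts in the complement values was not tested.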

How the data were processed

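RNA was extracted with TRIzol, and poly(A) RNA was made into libraries with a NEBNext Ultra II kit, per the labels' protocols. STAR 2.7.1a and featureCounts 1.6.2, with human and mouse genome builds, are named without a role in the submitters' processing notes, and the strand setting and annotation are not given in the sources used here. The authors deposited raw read counts per gene, 1 column per library. Of 60605 rows, 20014 without a symbol (0.485% to 0.822% of reads) were left out of library sizes and tests.

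From these counts edgeR 4.0.16 with limma 3.58.1 in R 4.3.3 gave TMM-scaled CPM, a filter by filterByExpr with the groups (15179 genes), and 1 quasi-likelihood fit of all 12 libraries with a mean per group (8 residual and 12 prior degrees of freedom, common biological coefficient of variation 7.91%, prior count 0.125). P-values were two-sided, adjusted by Benjamini-Hochberg within each of 6 contrasts. A standard error is the log2 fold change over the root of F. As a check of the code, the fit was run on simulated counts with the same biological coefficient of variation for every gene. That run does not cover genes whose variation differs from that value. As alternatives, each library was left out, the 6 libraries of a contrast were fitted alone, the replicate number was added as a block, scaling was by RLE or by totals, the filter was dropped or set to a mean of 1 CPM, and DESeq2 1.42.0 was run.

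The members and gene lists were chosen with earlier results of these data known. The rule for names took the 9 members, from each list up to 3 called genes per contrast with GFP with a mean of at least 1 CPM, and the 3 genes closest to each member. A few genes picked by this rule are not reported here, and other genes given by value (such as C4A and the C1q chains) were chosen after their values were seen.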

Additional observations from a re-analysis of the deposited data

How the results depend on the processing

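The number of members called stayed at 7 in each OSK contrast and in the test of any difference among the 4 groups under every alternative run. In GSTA4 against GFP it was 5 to 6 with a library left out, and in GSTA4 against WT 5. GFP against WT was the exception: 2 members were called in a fit of those 6 libraries alone, and 2 to 4 with a library left out (2 without GFP replicate 3). Over the tested members in 6 contrasts, 533 of the recomputed log2 fold changes kept direction and call, 10 lost the call, all of them for C3 or C1R, and 3 changed sign. The last were CD46 in GSTA4 against WT, at 0.045 without WT replicate 1, 0.01 without GSTA4 replicate 1 and 0.0025 without GSTA4 replicate 2, in a range from -0.063 to 0.045 beside -0.02 with all libraries. The cause was not tested. Without GFP replicate 1, CD55 rose by 3.47 and CD59 by 1.57 in OSK against GFP. With the replicate block the counts of members called were unchanged: 7 in each OSK contrast, 6 for GSTA4 and 4 for WT when set against GFP, and 5 between GSTA4 and WT. The labels give no origin for a pairing. Of 18 same-numbered pairs 3 had deviations that correlated above 0.1, all of them WT replicate 1 with replicate 1 of GFP (0.153), GSTA4 (0.12) and OSK (0.106), and 5 of 12 libraries correlated best with their own number. With 3 replicate numbers some libraries would match their own by chance, and no chance level was computed, so these counts do not show a pairing. Depth limits CFB and CFI, with 32 and 28 reads in all.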
